A study of Mus musculus with 4 samples.

Results

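The genes described here are 6 of the 46517 in the deposited expression table: the metallothionein genes Mt1, Mt2 and Mt3, the metal-responsive transcription factor gene Mtf1, the zinc exporter gene Slc30a1 and the zinc importer gene Slc39a10. They were taken by gene name as a set of metal-binding and zinc-handling genes, and the set was selected on the TPM of Mt2 and Mt1, which are among the largest rises between the genotypes of the study. Every value of that contrast is therefore a description for these genes, and their place among the calls made over all genes is stated once with nothing read from it. Of the 6 genes, 5 passed the filter on low values and 1, Mt3, was listed at 0 in every library.

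Messenger RNA had been sequenced from LSK cells, the bone marrow fraction negative for lineage markers and positive for Sca-1 and c-Kit, in which haematopoietic stem cells and early progenitors are found. The mice were C57BL/6 animals aged 8 to 10 weeks, and the study asked what becomes of adult haematopoietic stem cells without Setd2, the enzyme that trimethylates lysine 36 of histone H3. There were 2 libraries of Setd2f/f cells, which carry a functional floxed Setd2, and 2 of Setd2D/D cells, in which Setd2 is knocked out. The means of deletion, the exons removed and the number of mice per library are not stated in the labels, and because nothing says that the libraries came from separate mice, errors and p-values may reflect technical spread alone. Levels are in TPM, transcripts of a gene as a length-normalised share of all transcripts in the library.

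Metallothioneins are small, cysteine-rich cytosolic proteins that bind zinc and copper and sequester cadmium. When free zinc rises, it binds the zinc fingers of the protein encoded by Mtf1, which enters the nucleus and activates genes through metal response elements, short motifs in the promoters of Mt1, Mt2 and Slc30a1, while it represses Slc39a10. Zinc transporters of the Slc30a (ZnT) family move zinc out of the cytosol, and those of the Slc39a (ZIP) family move it in. Metallothionein genes are also known to respond to glucocorticoids, oxidative stress and interleukin 6, and zinc is needed in quantity by erythroid cells, which carry it in carbonic anhydrase.

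Because Mt1 and Mt2 lay together and moved together, the stretches before both genes are shown, from the RefSeq promoter windows of build GRCm38.p6 (the files use mm10, which is GRCm38). Each is the plus strand, 5′ to 3′, from 250 bases before the RefSeq start up to the base before the GENCODE gene start. Capitals mark matches to the core of the metal response element, searched as TGCACNC and TGCGCNC on both strands, so that a match on the minus strand reads as its reverse complement. Mt2 is at chr8:94172368-94172663 and Mt1 at chr8:94178839-94179081.
Mt2: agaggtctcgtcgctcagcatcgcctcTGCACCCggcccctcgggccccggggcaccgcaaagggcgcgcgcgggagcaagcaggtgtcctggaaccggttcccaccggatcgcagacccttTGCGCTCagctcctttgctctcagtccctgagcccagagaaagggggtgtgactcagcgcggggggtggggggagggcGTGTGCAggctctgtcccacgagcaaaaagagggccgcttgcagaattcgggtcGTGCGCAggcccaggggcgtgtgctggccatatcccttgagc
Mt1: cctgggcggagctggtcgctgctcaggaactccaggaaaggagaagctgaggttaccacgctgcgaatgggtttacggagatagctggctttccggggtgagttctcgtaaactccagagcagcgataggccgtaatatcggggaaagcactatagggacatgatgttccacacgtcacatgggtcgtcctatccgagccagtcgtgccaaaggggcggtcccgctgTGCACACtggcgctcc

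The Mt2 stretch held 4 cores. Their first bases lay 223, 128 and 50 bases before the RefSeq start and at base 5 after it, while the GENCODE gene starts 46 bases further on. The Mt1 stretch held 1 core, TGCACAC, and the full 300-base Mt1 window held 2 more, TGCACTC and TGCGCTC, at bases 3 and 21 after the RefSeq start. Among 32851 RefSeq windows of the same length, 25.7% held at least 1 core, 1.97% at least the 3 of Mt1 and 0.517% at least the 4 of Mt2. The Slc30a1 window held 2 cores, a number that 7.11% of windows reach. Mt3 and the related Mt4 held 1 each, and the windows of Mtf1 and Slc39a10 held none. All 6 genes had a window, and Slc39a10 had 2 of them. The core of the antioxidant response element, TGACNNNGC, was found once each in the Mt2 and Slc30a1 windows and in 12.4% of all windows. A match to such short letters is a description of the window and not a binding site. Only the 300 bases of each window were searched, so cores beyond it or near another transcript start were not counted.

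Mt2 (ENSMUSG00000031762, chromosome 8, 94172664 to 94173568, plus strand) rose from a low level to a level above that of most genes. It had 3.97 and 3.39 TPM in Setd2f/f against 72.31 and 72.91 TPM in Setd2D/D. The genotypes did not overlap, and the Setd2D/D libraries lay nearly on top of each other. The mean was 3.68 ± 0.410 TPM (SD, n = 2) in Setd2f/f and 72.6 ± 0.424 (SD, n = 2) in Setd2D/D, and the ratio of any Setd2D/D library to any Setd2f/f library was between 18.2 and 21.5, against 1.17 within Setd2f/f and 1.01 within Setd2D/D. Counted from the highest TPM, Mt2 ranked at positions 11712 and 11914 in Setd2f/f, rising to 2426 and 2348 in Setd2D/D, among 17185 to 20192 genes above 0. On the log2(TPM + 1) scale the difference was 3.98 with an SE of 0.19, which ranked at position 10 from the highest among 14755 genes tested.

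Mt1 (ENSMUSG00000031765, chromosome 8, 94179082 to 94180327, plus strand) follows Mt2 after a gap of 5513 bases and was the more abundant of the pair in every library. It had 18.46 and 22.15 TPM in Setd2f/f against 78.37 and 96.34 TPM in Setd2D/D. Here too the genotypes did not overlap, with ratios between libraries of 3.54 to 5.22 and a spread within a genotype of 1.20 and 1.23. The mean was 20.3 ± 2.61 TPM (SD, n = 2) in Setd2f/f and 87.4 ± 12.7 (SD, n = 2) in Setd2D/D, a log2 difference of 2.05 with an SE of 0.18. That difference ranked at position 94 from the highest among 14755 genes tested. By TPM the rank of Mt1 rose from positions 7721 and 6833 to 2210 and 1662.

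Mt1 and Mt2 did not rise in proportion. Mt2 amounted to 0.215 and 0.153 of the Mt1 level in the Setd2f/f libraries and to 0.923 and 0.757 of it in the Setd2D/D libraries, so that Mt2 went from 17.7% and 13.3% of the summed pair to 48.0% and 43.1%. The summed level of the pair was 22.4 and 25.5 TPM in Setd2f/f and 151 and 169 TPM in Setd2D/D. These shares compare levels per length and hold as far as the authors' transcript lengths for these short messages do, since Mt2 transcripts are annotated at 388 to 511 nt and Mt1 transcripts at 549 to 1085 nt. Whether reads were shared between the similar coding sequences of the pair was not tested.

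The low Setd2f/f level of Mt2 rests on few reads. TPM keeps no depth, but the lowest values of genes with a single transcript fell near multiples of a fixed step, which gives an estimate of what 1 read is worth in each library. By this estimate Mt2 had about 27 to 38 reads in each Setd2f/f library, depending on which transcript length applied, and about 354 to 495 and 541 to 757 reads in the Setd2D/D libraries. Mt1 had at least about 190 reads in every library. The counts of Setd2D/D replicate 1 were lower for its levels because it was the shallowest library, 0.603 times as deep as Setd2f/f replicate 2.

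**Figure D1:**
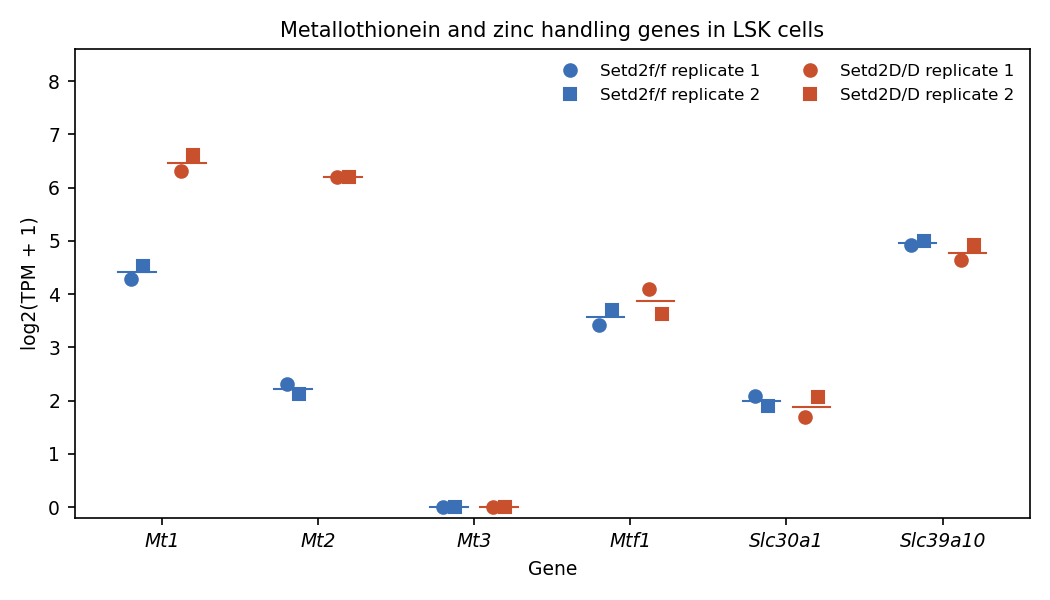
Level of each gene in each library as log2(TPM + 1), with circles for replicate 1, squares for replicate 2 and a bar at the mean of the 2 libraries of a genotype. Mt2 and Mt1 stand apart between genotypes, Mt3 is listed at 0 in all 4 libraries, and the points of Mtf1 and Slc30a1 overlap.

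The other metallothionein genes of the cluster had no level to compare. Mt3 (chromosome 8, 94152607 to 94154146), known chiefly from brain, was listed at 0 TPM in all 4 libraries, and so was Mt4 (chromosome 8, 94137197 to 94139031), known from stratified epithelia. Neither appears in the authors' deposited table of the comparison. Mt1 and Mt2, the metallothioneins found in most tissues, were thus the members of the cluster with a level above 0.

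Mtf1 (ENSMUSG00000028890, chromosome 4, 124802104 to 124849800), the zinc sensor itself, showed no separation of the genotypes. It had 9.74 and 12.01 TPM in Setd2f/f against 16.09 and 11.41 TPM in Setd2D/D. One Setd2D/D library was the highest of the 4 and the other lay between the Setd2f/f libraries. The log2 difference of 0.30 had an SE of 0.27, with 0.07 when Setd2D/D replicate 1 was removed and 0.53 when Setd2D/D replicate 2 was. The authors' deposited table, made from counts, gives Mtf1 a fold change of 1.04.

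Slc30a1 (ENSMUSG00000037434, chromosome 1, 191906767 to 191913247) encodes ZnT1, the exporter at the plasma membrane and, with the metallothioneins, the best known target of the Mtf1 protein. It was low throughout, with 3.26 and 2.72 TPM in Setd2f/f against 2.22 and 3.20 TPM in Setd2D/D. The genotypes overlapped, with the lowest value in Setd2D/D replicate 1. The log2 difference was -0.11 with an SE of 0.35, and 0.08 without Setd2D/D replicate 1, while the authors' deposited table gives a fold change of 1.33, so that the direction for this gene was not settled between the TPM and the authors' count-based values.

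Slc39a10 (ENSMUSG00000025986, chromosome 1, 46807544 to 46892852, minus strand) encodes ZIP10, a plasma membrane importer that is repressed when zinc is ample. It had 29.29 and 30.98 TPM in Setd2f/f against 24.05 and 29.20 TPM in Setd2D/D. Both Setd2D/D values lay under both Setd2f/f values, the upper one by less than the gap within Setd2f/f. The log2 difference was -0.18 with an SE of 0.17, and the authors' deposited table gives a fold change of 0.991. In Setd2f/f the order of mean levels was Slc39a10, Mt1, Mtf1, Mt2 and Slc30a1, where the Mt2 libraries lay just above those of Slc30a1. In Setd2D/D it was Mt1, Mt2, Slc39a10, Mtf1 and Slc30a1.

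Across all genes, limma placed 10 of 14755 past an adjusted p of 0.05, which is 0.0678% in either direction, and 1 of the 5 measured members, Mt2, was among them. The authors' deposited table places 1.51% of 23955 genes past an FDR of 0.05 as higher in Setd2D/D (1.64% are lower), and 2 of the 5 members, Mt1 and Mt2, were among those, with fold changes of 4.44 and 20.4. Both Setd2D/D libraries were above both Setd2f/f libraries for 16.8% of the genes tested and for 2 of the 5 members, and below them for 27.6% and for 1 member. The set was built on this contrast, so nothing is read from these counts. With 1 library removed, whichever it was, limma called 0 genes, and 554 to 2928 had an unadjusted p under 0.05. The Mt2 difference was between 3.89 and 4.07 and the Mt1 difference between 1.90 and 2.20 in those fits.

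**Figure D2:**
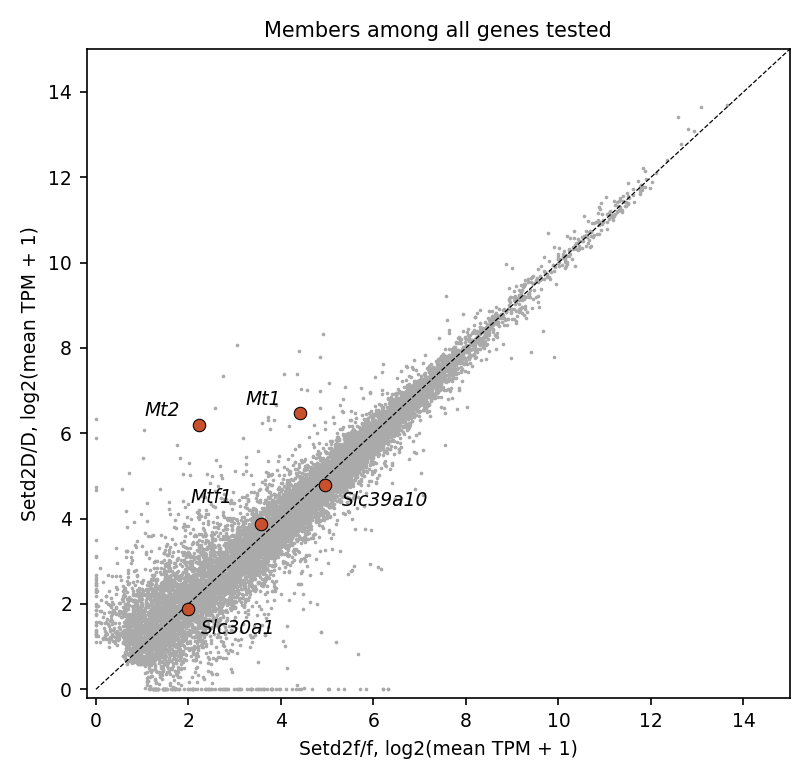
Mean TPM of the Setd2D/D libraries against that of the Setd2f/f libraries, both as log2(mean TPM + 1), for the 14755 genes tested (grey) and the 5 measured members (red). The dashed line marks equal levels. Mt2 and Mt1 lie above the dashed line, at positions 10 and 94 from the highest by difference in log2(TPM + 1). Mtf1, Slc30a1 and Slc39a10 lie within the cloud.

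The genes around the cluster played no part in choosing the set, and few of them were measured. Within 250 kb of Mt2 the annotation and the table share 14 genes besides the metallothioneins, of which 7 passed the filter. By limma 0 of the 7 passed over all genes, 0 had an unadjusted p under 0.05, the lowest adjusted p was 0.582, and 0 of the 10 with values in the authors' deposited table passed there. Nup93, a nuclear pore gene that is the next expressed gene after Mt1, had 49.65 and 55.86 TPM in Setd2f/f against 53.43 and 53.31 TPM in Setd2D/D. On the other side Bbs2, a gene of the ciliary BBSome complex, had 8.14 and 5.23 TPM in Setd2f/f against 13.23 and 6.58 TPM in Setd2D/D, with overlapping genotypes. Herpud1, a gene of endoplasmic reticulum stress, had 85.00 and 97.03 TPM in Setd2f/f against 99.32 and 105.94 TPM in Setd2D/D (limma adjusted p = 0.628). The ratios of mean TPM of the 7 genes were between 0.800 and 1.53, where Mt1 had 4.30 and Mt2 19.7.

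**Figure D3:**
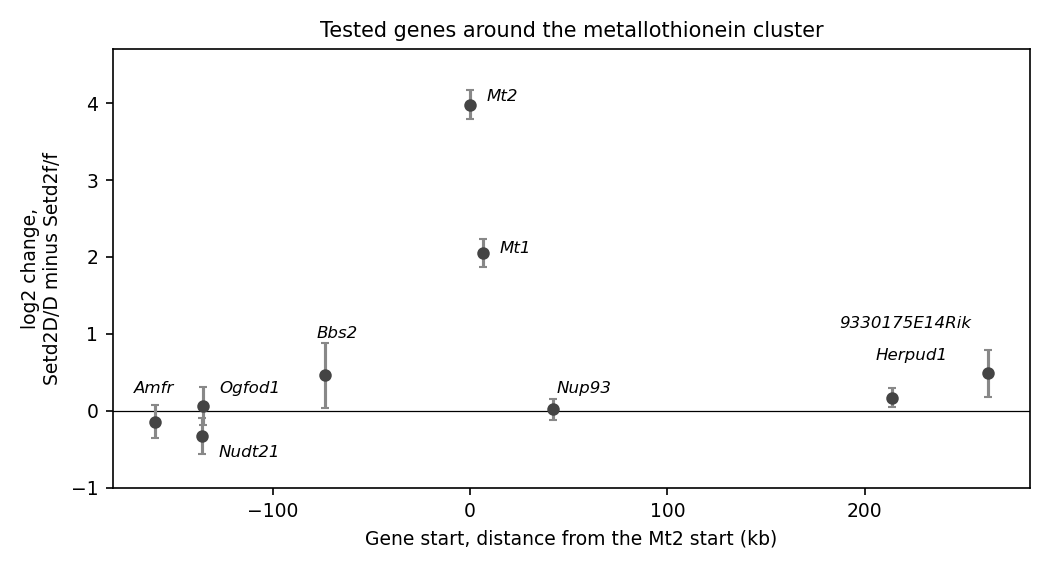
Difference in log2(TPM + 1) between Setd2D/D and Setd2f/f (points, with the SE of the limma fit) for each tested gene around the cluster, against the distance of its start from the Mt2 start in kb. Mt2 at 3.98 and Mt1 at 2.05 stand out, and the other genes lie between -0.33 and 0.49.

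The zinc transporter families were searched as a whole, with 24 genes in the table and 17 measured, among them Slc30a1 and Slc39a10. By limma 0 of the 17 passed over all genes, beside 0.0678% of all genes tested, with a lowest adjusted p of 0.420. Of the 17, 3 had an unadjusted p under 0.05 (Slc30a4, Slc39a3 and Slc39a7), where 11.2% of all genes tested did. The authors' deposited table has 1 of 23 past its FDR, Slc30a4, which was lower, as were 1.64% of all genes. The median log2 difference of the 17 was -0.10, beside -0.06 for all genes tested, and the range was -0.97 to 0.46. Slc30a4, which loads zinc into vesicles, had 10.50 and 7.56 TPM in Setd2f/f against 4.34 and 5.22 TPM in Setd2D/D, without overlap, and the authors' deposited table gives it a log2 change of -0.85 (FDR 0.0138) (limma adjusted p = 0.445). Its level was thus lower in Setd2D/D by the authors' test alone.

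Among the exporters of the secretory pathway, Slc30a5 was at 45.8 ± 1.85 TPM (SD, n = 2) in Setd2f/f and 47.8 ± 3.63 in Setd2D/D. Its partner Slc30a6 was at 10.1 ± 0.651 and 9.34 ± 1.37 TPM. Slc30a7 had 17.61 and 18.50 TPM in Setd2f/f against 31.73 and 20.04 TPM in Setd2D/D (FDR 0.0896 in the authors' deposited table), with most of the difference in Setd2D/D replicate 1. Of the other genes of the Slc30a family, Slc30a9 was at 66.2 ± 8.00 and 66.5 ± 8.12 TPM, and Slc30a2, Slc30a3, Slc30a8 and Slc30a10 did not pass the filter.

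Of the importers, Slc39a7, which releases zinc from the endoplasmic reticulum, was the most abundant, with 82.95 and 73.27 TPM in Setd2f/f against 97.88 and 97.05 TPM in Setd2D/D. The genotypes did not overlap, but the difference did not pass (limma adjusted p = 0.445, FDR 0.0669 in the authors' deposited table). Slc39a3 had 13.42 and 10.48 TPM in Setd2f/f against 5.23 and 7.13 TPM in Setd2D/D (limma adjusted p = 0.420), and the authors' deposited table gives a log2 change of -0.44 (FDR 0.647). The intestinal importer gene Slc39a4 had 3.24 and 1.70 TPM in Setd2f/f against 1 and 0.5 TPM in Setd2D/D, a level at which the difference did not pass either (limma adjusted p = 0.495). The plasma membrane importer gene Slc39a8 was at 8.27 ± 0.0141 and 11.1 ± 0.919 TPM, Slc39a14, which also carries iron, at 19.0 ± 2.99 and 13.6 ± 4.35, and Slc39a6, the partner of Slc39a10, at 33.0 ± 0.919 and 29.4 ± 1.05. The remaining measured importers, Slc39a1, Slc39a9, Slc39a11 and Slc39a13, had ratios of mean TPM of 1.02, 0.934, 0.811 and 0.937. None of the importers passed limma, beside 0.0678% of all genes, or the authors' FDR, beside 1.51% higher and 1.64% lower. Of the 11 measured, 2 had both Setd2D/D libraries above and 7 had both below, beside 16.8% and 27.6% of all genes tested.

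**Figure D4:**
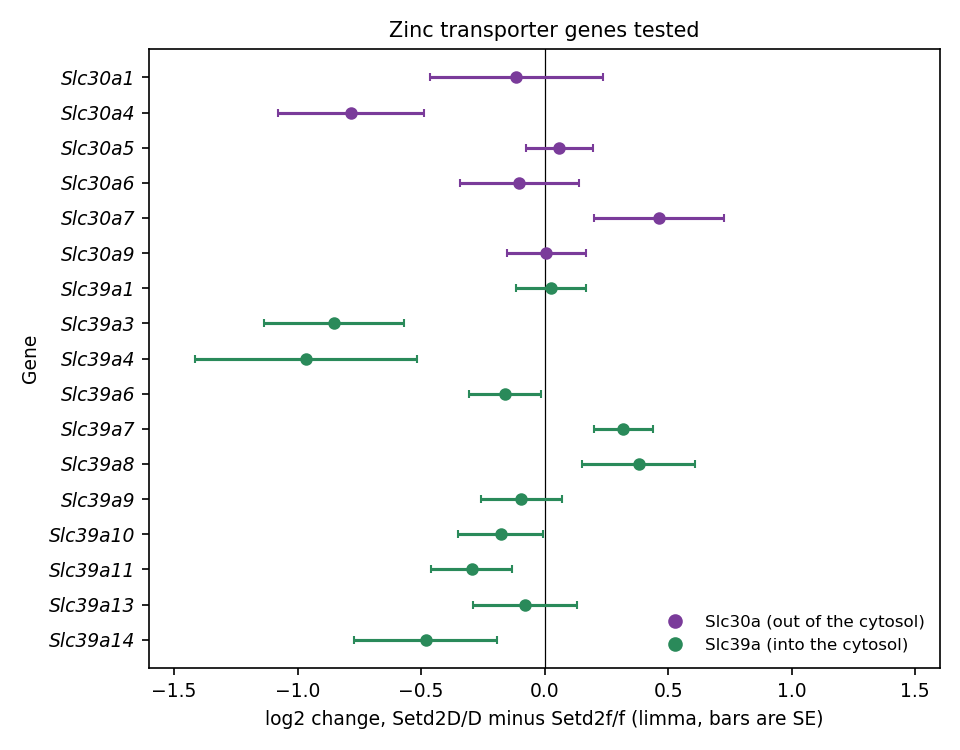
Difference in log2(TPM + 1) between Setd2D/D and Setd2f/f for the 17 zinc transporter genes tested, with the SE of the limma fit, exporters in purple and importers in green. The values run from -0.97 for Slc39a4 to 0.46 for Slc30a7, all far below those of Mt1 and Mt2.

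Of the other genes reported to answer to the Mtf1 protein none passed a test as higher in Setd2D/D. Over all genes 1.51% were higher in the authors' deposited table and 0.0678% passed limma in either direction. A count of 0 in so short a list is near these shares, and nothing is read from it. The list has 7 measured genes and mixes roles, since it holds Mtf1 itself and Slc39a10, which the Mtf1 protein represses. Mtf1 was the 1 gene with a log2 difference above 0, and 6 were below, with a median of -0.18, beside 6217 above, 8538 below and a median of -0.06 for all genes tested. By limma 0 passed over all genes and 2 of the 7, Ndrg1 and Csrp1, had an unadjusted p under 0.05, beside 11.2% of all genes. Ndrg1 was the 1 of 8 past the FDR of the authors' deposited table, where it was lower, as were 1.64% of all genes. Ndrg1, a stress gene also induced in hypoxia, had 66.45 and 43.29 TPM in Setd2f/f against 19.86 and 17.23 TPM in Setd2D/D. The authors' deposited table gives it a log2 change of -1.42 (FDR 1.49e-19), while limma gave an adjusted p of 0.242. Csrp1, a zinc-binding LIM domain gene, was at 180 ± 8.00 and 131 ± 0.431 TPM (limma adjusted p = 0.320), Sepw1, a selenoprotein gene, at 173 ± 10.1 and 149 ± 16.7 (limma adjusted p = 0.559), and Gclc, of glutathione synthesis, at 35.63, 33.21, 39.50 and 29.48 TPM over the Setd2f/f and then the Setd2D/D libraries.

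Genes of the other signals known to induce metallothioneins were counted in the same way, and limma placed 0 past the threshold over all genes in each list. Limma placed 0.0678% of all genes past it, so 0 in such short lists is near the background and nothing is read from it. Of 11 glucocorticoid response genes 7 had a log2 difference above 0 and 4 below, with a median of 0.15, and 4 had both Setd2D/D libraries above both Setd2f/f libraries, beside 16.8% of all genes. Errfi1, counted among those 4, had 0.14 and 0.69 TPM in Setd2f/f against 1.10 and 1.44 TPM in Setd2D/D. It reached the filter's 1 TPM in Setd2D/D alone, so it could only count as higher. Klf9, a glucocorticoid-induced transcription factor gene, was the 1 of the 11 with an unadjusted p under 0.05 (11.2% of all genes), with 3.88 and 3.51 TPM in Setd2f/f against 7.94 and 6.62 TPM in Setd2D/D (limma adjusted p = 0.425, FDR 0.138 in the authors' deposited table). None of the 11 passed as higher in the authors' deposited table, where 1.51% of all genes did, and 1 passed as lower, as did 1.64%. That gene, Fkbp5, a classical glucocorticoid target, had 80.29 and 91.96 TPM in Setd2f/f against 49.29 and 70.58 TPM in Setd2D/D (FDR 0.00613). The receptor gene Nr3c1 was at 36.3 ± 0.502 and 26.2 ± 7.49 TPM. The members of this list thus differed in direction.

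Of 11 measured genes of the NRF2 oxidative stress response 4 had a log2 difference above 0 and 7 below, with a median of -0.17. The heme oxygenase gene Hmox1 was the 1 with an unadjusted p under 0.05 (11.2% of all genes). It was at 20.8 ± 2.21 and 12.4 ± 0.311 TPM (limma adjusted p = 0.390). The thioredoxin reductase gene Txnrd1 was at 82.8 ± 2.11 and 67.8 ± 1.09 TPM, and G6pdx, of the pentose phosphate pathway, at 60.5 ± 2.54 and 70.9 ± 4.48. None of the 12 in the authors' deposited table passed, where 1.51% of all genes were higher and 1.64% lower. Of 8 genes of the interleukin 6 and STAT3 response 3 had a log2 difference above 0 and 5 below, 0 had an unadjusted p under 0.05 and 0 passed in the authors' deposited table. The lowest p was that of Il6st, the shared receptor chain gp130, with 23.58 and 22.18 TPM in Setd2f/f against 44.68 and 27.20 TPM in Setd2D/D (limma adjusted p = 0.487). Stat3 was at 123 ± 16.2 and 102 ± 2.11 TPM, Bcl3 at 31.1 ± 6.16 and 21.6 ± 9.14, and the feedback inhibitor gene Socs3 at 8.85 ± 4.29 and 5.50 ± 0.00707. Of 7 measured heat shock genes 1, Hspa1b, had an unadjusted p under 0.05 (11.2% of all genes). It had 2.95 and 2.27 TPM in Setd2f/f against 8.01 and 8.65 TPM in Setd2D/D. The authors' deposited table gives it a fold change of 3.31 with an FDR of 0.00367 (limma adjusted p = 0.302), and its near-identical copy Hspa1a, at 1.38, 0.36, 0 and 2.11 TPM in the same order, makes the split between them uncertain. Hsf1, the heat shock factor gene, was at 49.2 ± 0.156 and 43.0 ± 2.86 TPM, and the chaperone gene Dnajb1 at 62.7 ± 2.64 and 56.6 ± 1.11.

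Genes that handle other metals included 2 that passed the authors' test, Commd1 of copper and Tfrc of iron. Of 11 copper handling genes 0 passed limma over all genes and 2 had an unadjusted p under 0.05 (11.2% of all genes), Ccs and Commd1. Ccs, the copper chaperone of superoxide dismutase, had 32.70 and 39.47 TPM in Setd2f/f against 19.02 and 21.80 TPM in Setd2D/D (FDR 0.104 in the authors' deposited table). Commd1, which supports copper export, had 94.47 and 122.05 TPM in Setd2f/f against 48.13 and 70.88 TPM in Setd2D/D (limma adjusted p = 0.385), and it was the 1 copper gene that passed in the authors' deposited table (FDR 0.0168), where 1.64% of all genes were lower. Cox17, a copper chaperone of the mitochondria, was at 103 ± 11.6 and 118 ± 15.2 TPM, with overlapping genotypes. Of 13 iron handling genes 0 passed limma and 2 had an unadjusted p under 0.05, Slc40a1 and Tfrc. Slc40a1, the iron exporter ferroportin, was at 6.22 ± 0.233 and 10.9 ± 1.20 TPM (limma adjusted p = 0.423), and the iron importer gene Slc11a2 at 16.9 ± 4.68 and 23.9 ± 0.438. The transferrin receptor gene Tfrc had 52.29 and 53.49 TPM in Setd2f/f against 73.16 and 64.60 TPM in Setd2D/D, and it was the 1 iron gene past the FDR of the authors' deposited table (0.00612), where 1.51% of all genes were higher. The ferritin chains Fth1 and Ftl1, the storage side of iron, had log2 changes of -0.04 and 0.03 in the authors' deposited table.

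The profile of Mt2 over the 4 libraries was set against those of other protein-coding genes with a mean TPM of at least 5, as the distance between log2(TPM + 1) values centred on each gene's mean. The 8 nearest to Mt2 were Hbb-bs, Bex4, Gzmb, Cldn5, Cldn13, Hba-a1, Ces2g and Ms4a4c, at distances of 1.30 to 1.71. None was close, since Mt2 changed more than all of them but Hbb-bs, an adult beta globin gene whose Setd2f/f libraries were at 4.20 and 0.56 TPM. The 8 nearest to Mt1 were F13a1, Klf1, Add2, Lmna, Ccl6, Epdr1, Paqr3 and Gpc3, at distances of 0.186 to 0.508. F13a1, which encodes a subunit of coagulation factor XIII, had 10.41, 10.33, 42.21 and 51.95 TPM in the order used above, and Klf1, a master regulator of erythroid genes, had 4.55, 4.60, 19.11 and 19.73 TPM. With 4 libraries and 2 levels, such likeness describes a common step between genotypes and no more.

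Markers of the erythroid lineage moved with Mt1 and Mt2. Of 18 erythroid markers 15 were measured, and all 15 had both Setd2D/D libraries above both Setd2f/f libraries, beside 16.8% of all genes, with a median log2 difference of 1.59. Slc4a1 among them reached the filter's 1 TPM in the Setd2D/D libraries alone, so it could only count as higher. By limma 0 passed over all genes and 13 of the 15 had an unadjusted p under 0.05, beside 11.2% of all genes, and 13 of 18 were higher in the authors' deposited table, beside 1.51%. Their summed level was 548 and 410 TPM in Setd2f/f and 1110 and 1013 TPM in Setd2D/D. The carbonic anhydrase gene Car1 was at 32.1 ± 13.4 and 144 ± 16.3 TPM, and Aqp1, which encodes an aquaporin, was at 12.4 ± 0.552 and 31.6 ± 4.21 TPM. The globin gene Hbb-bt had 38.59 and 106.15 TPM in Setd2f/f against 220.36 and 171.64 TPM in Setd2D/D, and Hba-a1 had 3.28 and 6.08 against 23.75 and 37.73 TPM. Slc4a1, the anion exchanger of the red cell membrane, had 0.25 and 0.05 TPM against 1.57 and 2.28 TPM, while Alas2, which starts heme synthesis in erythroid cells, had 1.61 and 0.28 against 0 and 0.93 TPM. The globin genes were thus higher in Setd2D/D, and Alas2 overlapped near 0.

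Mast cell and basophil markers summed to 118 and 112 TPM in Setd2f/f and 134 and 179 TPM in Setd2D/D. Of these 8 markers 3 were higher in the authors' deposited table, Cpa3, Gzmb and Cma1, beside 1.51% of all genes. Cpa3, a mast cell protease gene, was at 36.0 ± 6.84 and 63.5 ± 4.25 TPM, and Gzmb at 0.855 ± 0.148 and 10.2 ± 2.58. Cma1 had 0, 0.04, 3.21 and 4.67 TPM in the order used above. The receptor gene Fcer1a was at 0.810 ± 0.141 and 5.97 ± 2.06 (FDR 0.245 in the authors' deposited table). Genotypes overlapped for Mcpt8, with 30.26 and 39.71 TPM in Setd2f/f against 20.86 and 45.43 TPM in Setd2D/D. Prss34 overlapped as well, with 31.42 and 32.58 against 16.54 and 40.12 TPM. So did Ms4a2, with 13.14 and 6.67 against 12.83 and 8.00 TPM. Of the 7 measured markers 5 had a log2 difference above 0 and 2 below. Those above include Gzmb, Cma1 and Fcer1a, which reached the filter's 1 TPM in the Setd2D/D libraries alone and could only count as higher. Of the rest, Cpa3 and Ms4a2 were above 0 and Mcpt8 and Prss34 below. Macrophage markers summed to 70.5 and 73.6 against 123 and 100 TPM, with 1 of 8 higher in the authors' deposited table (1.51% of all genes). That gene, the lysosomal Cd68, had 26.11 and 33.67 TPM in Setd2f/f against 77.12 and 57.28 TPM in Setd2D/D, and the other 7 summed to 44.4 and 39.9 against 45.6 and 43.0 TPM. The complement gene C1qa was at 7.50 ± 0.601 and 4.67 ± 0.643 TPM and Vcam1 at 6.70 ± 0.863 and 9.44 ± 4.44. Stromal and endothelial markers summed to 125 and 98.8 against 90.6 and 84.5 TPM, with 1 of 8 lower in the authors' deposited table. That gene, Emcn, which stem cells express as well, had 42.85 and 24.33 TPM in Setd2f/f against 5.68 and 11.70 TPM in Setd2D/D (FDR 2.5e-07), and the other 7 summed to 82.3 and 74.5 against 84.9 and 72.8 TPM, nearly all of it Pecam1 at 77.2 ± 5.75 and 77.6 ± 9.78. Col1a1, Cdh5, Kdr, Cxcl12 and Lepr were at or under 0.59 TPM in every library. The part of other cell types in the metallothionein levels was not tested, and in such bulk libraries more cells of a type and more RNA per cell cannot be told apart.

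The series itself was checked on the targeted gene and the sorting markers. Setd2 had 78.9 and 68.0 TPM in Setd2f/f against 43.4 and 49.5 TPM in Setd2D/D, over the whole gene, so that transcripts lacking only a deleted part would still count. Its FDR in the authors' deposited table was 5.84e-06 (limma adjusted p = 0.329). Kit was at 237 ± 17.2 and 293 ± 11.1 TPM, Ly6a, which encodes Sca-1, at 126 ± 2.63 and 63.6 ± 24.1, and the progenitor marker gene Cd34 at 760 ± 18.3 and 498 ± 31.1. Of 8 stem and progenitor markers 2 were lower in the authors' deposited table, Ly6a (FDR 3.08e-06) and Cd34 (FDR 0.0461), beside 1.64% of all genes. By limma 0 of these markers passed (adjusted p = 0.370 for Ly6a and 0.211 for Cd34). Of the depleted lineage genes, Cd3e and Cd8a did not exceed 0.57 TPM in any library, while Cd4 was between 0 and 14.61 TPM, Itgam was between 17.74 and 22.86 TPM, and the 8 depleted lineage markers together summed to 86.1 and 50.5 TPM in Setd2f/f and 39.3 and 49.4 TPM in Setd2D/D. Libraries correlated at r = 0.910 to 0.959 across genes, with Setd2D/D replicate 1 the least like the others.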

How the data were processed

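For 46517 genes in 4 libraries the authors deposited expression in TPM. A second deposited table holds their comparison of 23955 genes, as a ratio (fold change), log2 values (fold change and mean CPM), the F statistic and p-value as a score each, and an FDR (adjusted p-value). Processing used cutadapt, RSEM, edgeR and build mm10 per the submitters' processing notes, with roles and versions not given in the sources used here. Fields shifted by a comma in the gene name were joined again in 5 and 2 rows. Genes that reached 1 TPM in 2 or more libraries were fitted as log2(TPM + 1) with limma 3.58.1 in R 4.3.3, with an abundance trend, 2-sided, Benjamini-Hochberg adjusted, and the script was tested on simulated data. An exact permutation of 2 against 2 cannot go below p = 0.33. The genes and lists were chosen with earlier results of these data known. Named are the members, zinc transporters above a mean TPM of 1, the 3 genes of lowest p per list and those past a threshold, neighbours within 250 kb and the 8 nearest profiles. Hspa1a, Socs3, Gclc, Errfi1, Fth1, Ftl1 and further markers given by level were added after their values were seen. Gene positions are GENCODE M21 on GRCm38, where 46005 identifiers matched. Reads behind a value were estimated from single-transcript genes, of whose low values 66.1% to 73.6% lay within 0.2 of a whole read. The worth of a read was fitted to these same values, so that share is no separate check of the estimate. Some marker genes of the lists are not reported here by name.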

Additional observations from a re-analysis of the deposited data

How the results depend on the processing

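Over all genes limma called 10, and 3 with a pseudocount of 0.1, 19 without the variance trend, and 0 with no filter (2035 at an unadjusted p under 0.05). With the replicate block it called 0 (1508 unadjusted); the numbers are not known to pair the libraries, whose differences correlated at 0.041 between genotypes. Leaving out 1 library gave 0 to 0 calls (554 to 2928 unadjusted), with the lone library assumed to vary like the other pair. The Mt2 difference was 4.27 and 4.13 at pseudocounts of 0.1 and 0.5, and kept within the library spread elsewhere (3.89 to 4.07), as did Mt1 (1.90 to 2.20). Mtf1 stayed above 0 and Slc39a10 below 0 in every setting, and Slc30a1 changed sign only without Setd2D/D replicate 1; at a filter of TPM 5 it was not tested. The Setd2f/f level of Mt2 is limited by its few reads.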

Other observations

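Mt1 and Mt2 belong to the shortest protein-coding genes measured, spanning 1246 and 905 bases, against 47697 for Mtf1. Of 12077 protein-coding genes tested, 136 (1.13%) span no more than Mt1, a limit set by Mt1 itself. Without Mt1 and Mt2, which were chosen for their rise, 134 were left, of which 8 were higher and 4 lower in Setd2D/D in the authors' deposited table, where 254 and 322 of 12075 protein-coding genes tested were, the pair left out. The median log2 difference was -0.014 for the 134 and -0.07 for all.

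Of the genes tested, 9739 could be matched to a promoter window by symbol, and 365 of them had at least as many metal response element cores as Mt1. Without Mt1 and Mt2 the other 363 had a median log2 difference of -0.11, beside -0.07 for all matched genes, and 8 of them (2.20%) were higher and 8 lower in the authors' deposited table, against 1.92% higher among all matched genes. The limit of 3 cores was set by Mt1 after its window was searched, and nothing is drawn from the matches about the factor that binds such elements.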
